A study of Sus scrofa with 8 samples.

Results

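The positions of CTCF peaks were compared with those of H3K27ac peaks in pig embryonic fibroblasts (PEFs). The comparison used 4 of the 8 ChIP-seq samples of the series, namely the 2 CTCF and the 2 H3K27ac libraries, chosen by the antibody named in their labels. All peaks on chromosomes 1 to 18 and X were members, which gave 39854 CTCF peaks in replicate 1 and 44209 in replicate 2, of 40289 and 44682 listed, and 74448 and 80531 H3K27ac peaks, of 74983 and 81164 listed. Of the other 4 samples, the 2 H3K4me3 libraries served as a further histone mark and the 2 input libraries, without a peak list here, were not used. ChIP-seq pulls down DNA fragments bound by a protein or a modified histone with an antibody and sequences them. The fibroblasts came from Large White fetuses 35 days of age and were grown for a day before use, and the labels name no treatment, transgene or deletion in any sample. CTCF was precipitated with Abclonal antibody A1133 and H3K27ac with Abcam antibody ab4729, and the labels list a separate input for CTCF and for the histone marks, so that differences between the inputs and between the marks cannot be told apart. The labels give replicate numbers only, so that the spread between replicates, which may come from 1 culture, may be technical.

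CTCF is a zinc finger protein that binds a long, directional DNA motif. It stops cohesin, the ring complex that extrudes chromatin loops, and is found at loop anchors, at borders of chromatin domains and at many promoters. H3K27ac is acetylation of lysine 27 on histone H3, placed by the acetyltransferases CBP and p300 on nucleosomes beside active promoters and enhancers. A nucleosome cannot sit where a protein such as CTCF is bound, and a histone mark is therefore read from the nucleosomes next to such a site.

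The peak lists differed in number and shape. CTCF peaks had a median width of 676 bp in replicate 1 and 776 bp in replicate 2 and covered 1.13% and 1.45% of the chromosomes. H3K27ac peaks had a median width of 1270 bp and 1147 bp and covered 5.91% and 5.96%. The median fold enrichment over control was 19.7 and 19.2 for CTCF and 4.84 and 4.75 for H3K27ac. The summit is the base of highest enrichment that the peak caller reports for each peak. The precision of a summit was read from the replicates of the same mark. Where peaks of both replicates overlapped, the nearest summit of replicate 2 lay at a median of 16.0 bp from a CTCF summit of replicate 1, and at a median of 112 bp from an H3K27ac summit. Positions below about 100 bp were therefore resolved for CTCF and not for single H3K27ac peaks. The lists carry no read counts, so that the depth behind a peak is unknown here.

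A motif was learned from the sequence under 600 CTCF summits of replicate 1. It was 19 bp long, and its consensus, TGGCCACTAGAGGGCGCTA, set the direction called forward. A motif with a p-value under 0.0001 per position on either strand was found within 100 bp of 88.5% of CTCF summits in replicate 1 and 87.2% in replicate 2. Windows of the same length centred 1 kb from the same summits held one in 10.6% and 10.4% of cases. The motif lay at a median of 15.0 bp and 14.0 bp from the summit, and 50.1% of motifs in both replicates were on the plus strand. For the sequences, CTCF sites with summits of both replicates within 100 bp of each other were grouped by their place relative to H3K27ac peaks. The site of highest mean CTCF fold enrichment with a motif in each group is shown, 5′ to 3′ on the motif's strand, as an example of what CTCF bound in each setting. Capitals mark the motif. The sequences come from the RefSeq copy of Sscrofa11.1, and none of them overlapped an annotated exon.
DHX8, inside an H3K27ac peak, chr12:19582286-19582344, minus strand: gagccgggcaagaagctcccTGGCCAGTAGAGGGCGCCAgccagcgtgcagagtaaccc
IFN-DELTA-7, at the edge of an H3K27ac peak, chr1:201540463-201540521, plus strand: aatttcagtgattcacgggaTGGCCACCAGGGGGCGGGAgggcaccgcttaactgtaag
LOC110259247, between H3K27ac peaks on both sides, chr2:9629162-9629220, minus strand: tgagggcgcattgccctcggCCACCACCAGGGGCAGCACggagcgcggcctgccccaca
GBX1, with an H3K27ac peak on one side, chr18:6054168-6054226, plus strand: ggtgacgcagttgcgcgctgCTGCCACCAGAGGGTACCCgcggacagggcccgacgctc
LOC100518052, far from H3K27ac, chr1:245806159-245806217, minus strand: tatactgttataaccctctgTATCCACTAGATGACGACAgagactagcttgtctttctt
Each sequence is named by the gene with the nearest annotated transcription start site (TSS).

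H3K27ac summits were dense around CTCF summits and less dense on top of them than beside them. The nearest H3K27ac summit lay at a median of 7850.5 bp from a CTCF summit in replicate 1 and 6837 bp in replicate 2. An H3K27ac summit was found within 1 kb of 21.9% and 24.4% of CTCF summits (mean 23.16% ± 1.71 SD, n = 2). Within 50 bp, there was one at 0.507% and 0.672% of CTCF summits. Densities were also lower at the summit than beside it. From 0 to 100 bp on both sides, there were 56.3 and 80.1 H3K27ac summits per Mb, which was still 1.28 and 1.64 times the density at 20 to 50 kb. The density rose to 125 and 155 per Mb at 100 to 200 bp and to 209 and 232 per Mb at 200 to 400 bp. It fell to 65.7 and 70.2 per Mb at 600 to 1000 bp, and lay at 43.9 and 48.7 per Mb at 20 to 50 kb, which was above the 31.1 and 33.7 summits per Mb of the whole chromosomes. The density at 200 to 400 bp was thus 3.71 and 2.90 times that at 0 to 100 bp, or 3.306 ± 0.575 (SD, n = 2). This ratio rose to 5.986 when each library was cut to its 30000 peaks of lowest p-value. In 50 bp bins, the highest density was at 300 to 350 bp to the left and 250 to 300 bp to the right in replicate 1, and at 200 to 250 bp to the left and 250 to 300 bp to the right in replicate 2. These distances are larger than the median distance between replicate summits of overlapping H3K27ac peaks, 112 bp and 116 bp, but not than its 75th percentile of 310.0 bp and 338 bp, so that the place of a maximum is known only roughly.

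**Figure D1:**
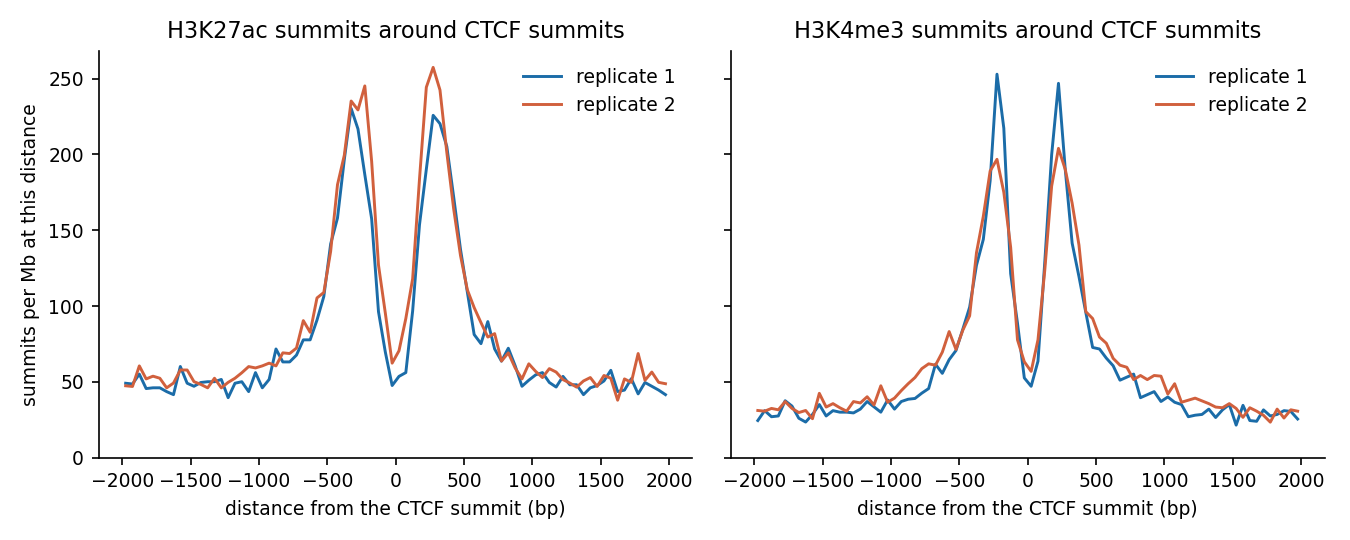
Summits of H3K27ac (left) and H3K4me3 (right) per Mb of sequence, in 50 bp bins, against the distance in bp from a CTCF summit, with 1 line per replicate. Both marks have a trough at the CTCF summit between flanking maxima, which for H3K27ac reached 230 and 226 per Mb in replicate 1 and 245 and 257 per Mb in replicate 2.

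H3K27ac summits of one replicate set around those of the other were densest at the centre, with 2014 per Mb at 0 to 100 bp and 296 per Mb at 200 to 400 bp (replicate 1 as centre). Replicates of 1 mark share summits, so that this maximum was fixed in advance and is no control for the trough at CTCF summits. H3K4me3, the histone mark of promoters, had a trough of the same kind. Its summits were at 62.7 and 68.7 per Mb within 100 bp of a CTCF summit and at 176 and 173 per Mb at 200 to 400 bp. The crossed combinations of H3K27ac and CTCF libraries gave ratios of 3.796 (CTCF replicate 1 with H3K27ac replicate 2) and 3.02 (the reverse), so that the ratio was higher with CTCF replicate 1 in both cases.

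The trough was deeper at strong CTCF peaks. CTCF peaks of each library were divided by fold enrichment into 4 groups of equal size. In the lowest group, the density of H3K27ac summits at 200 to 400 bp was 1.49 and 1.15 times that within 100 bp. In the highest group the ratio was 8.71 and 7.66. Within 100 bp of the strongest CTCF summits there were 25.6 and 37.1 H3K27ac summits per Mb, which was 0.629 and 0.782 of the density at 20 to 50 kb from the same summits. In the lowest group, the density within 100 bp was 2.43 and 3.38 times that at 20 to 50 kb. CTCF peaks without a motif showed a weaker trough, with ratios of 1.74 and 1.67, than peaks with a motif, with ratios of 4.46 and 3.34. By genomic class, the ratio was between 2.76 and 4.05 in promoters, exons, introns and intergenic sequence of both replicates, so that the trough was present in all of these classes. Flanking H3K27ac was densest at promoters, at 577 and 647 summits per Mb at 200 to 400 bp, against 160 and 174 per Mb at intergenic CTCF summits.

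The flanks were unequal when CTCF sites were aligned by the direction of their motif. Downstream is the side after the 3′ end of the forward motif. Among 35271 CTCF summits with a motif in replicate 1, there were 2958 H3K27ac summits within 1 kb upstream and 4605 downstream. In replicate 2, with 38563 such summits, there were 3711 upstream and 5366 downstream. The ratio of downstream to upstream was 1.56 and 1.45, or 1.501 ± 0.0784 (SD, n = 2), and 1.54 and 1.49 in the crossed combinations. A ratio of 1 stands for equal sides, and both replicates were on the same side of it. The ratio was 1.497 and 1.422 within 400 bp, 1.23 and 1.20 within 5 kb, 1.10 and 1.08 within 20 kb, and 1.05 in both replicates within 100 kb. Of these windows, 1 kb had the highest ratio in both replicates, and the ratio declined in wider windows. In 50 bp bins, the density peaked at 316 per Mb at 300 to 350 bp downstream in replicate 1 and at 314 per Mb at 250 to 300 bp downstream in replicate 2. On the upstream side, the highest bins held 164 per Mb at 250 to 300 bp in replicate 1 and 212 per Mb at 200 to 250 bp in replicate 2.

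**Figure D2:**
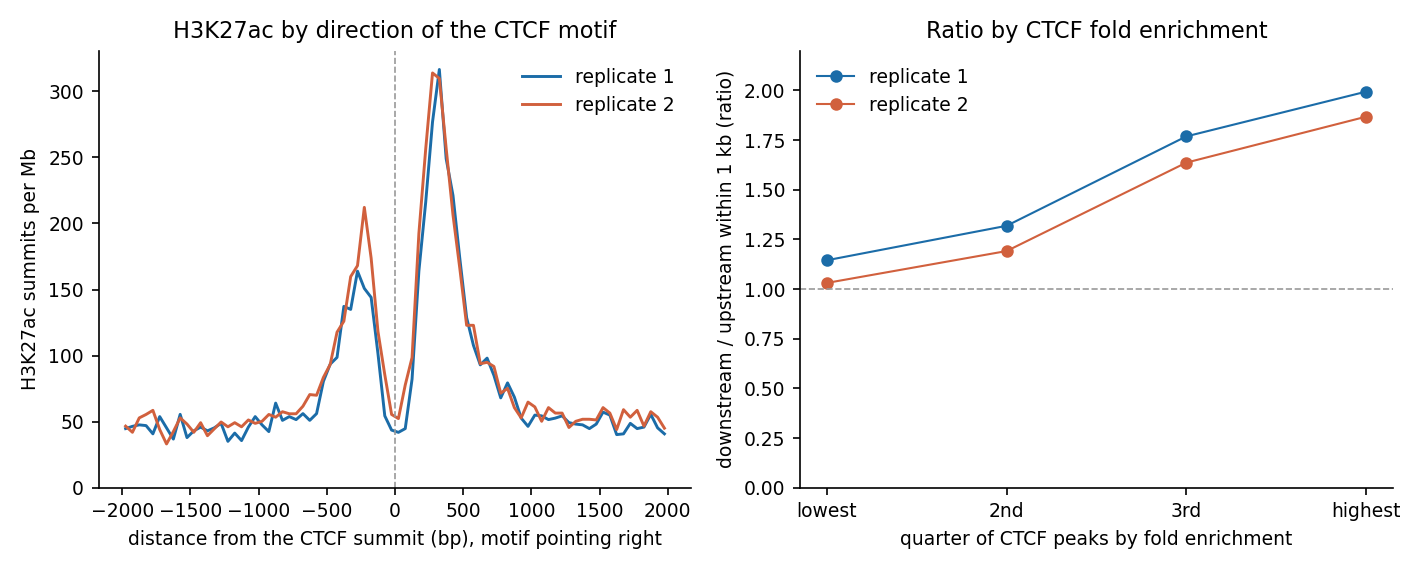
Left, H3K27ac summits per Mb in 50 bp bins against the distance in bp from CTCF summits, all turned so that the motif points to the right, with 1 line per replicate. Right, the ratio of H3K27ac summits downstream to upstream within 1 kb for 4 groups of CTCF peaks of equal size by fold enrichment, where the dashed line marks equal sides and the ratio runs from 1.15 and 1.03 in the lowest group to 1.99 and 1.87 in the highest.

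The inequality followed CTCF fold enrichment. Within 1 kb, the ratio of downstream to upstream H3K27ac summits was 1.15 and 1.03 in the lowest group of CTCF peaks, 1.32 and 1.19 in the next, 1.77 and 1.64 in the third and 1.99 and 1.87 in the highest. It was present outside promoters, at 1.52 and 1.43, as well as at promoters, at 1.69 and 1.51. It was also present for CTCF summits that lay outside every H3K27ac peak, at 1.83 and 1.73, and for those inside one, at 1.45 and 1.35. H3K4me3 summits had ratios of 1.61 and 1.53 within 1 kb. At promoters, the motif also had a direction relative to the gene. Of 2795 and 3244 CTCF summits in promoters with a motif, 58.8% and 57.3% had a motif that pointed the way the nearest gene is transcribed. The share was 63.2% and 61.7% for summits upstream of the TSS and 53.1% and 51.9% for those downstream. How far the direction of genes accounts for the unequal flanks at promoters was not tested.

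The sequence between neighbouring CTCF sites was then grouped by the directions of the 2 motifs. A pair whose motifs point at each other is called convergent, a pair whose motifs point away from each other divergent, and a pair with the same direction tandem. In replicate 1, 24.5% of 35252 stretches were convergent, 24.5% divergent and 51.0% tandem. Convergent stretches were longer, with a median of 47522 bp in replicate 1 and 42175 bp in replicate 2, than tandem (31741 and 30522 bp) and divergent stretches (26630 and 25135 bp). Since H3K27ac was denser in short stretches, densities were compared within length classes. At 10 to 50 kb, there were 57.3 and 63.3 H3K27ac summits per Mb in convergent stretches, 48.1 and 52.6 in tandem and 42.7 and 47.2 in divergent stretches. The order convergent, tandem, divergent held in each of the 4 length classes in both replicates and in both crossed combinations. A convergent stretch holds the downstream flanks of both its end sites, and a divergent stretch the upstream flanks. This order therefore shares summits with the unequal flanks given above and is not independent of them. Whether a difference remains away from the flanks was not tested. Over 100 kb, the values of tandem and divergent stretches were close, at 21.3 and 22.1 against 20.6 and 20.1 per Mb. At least 1 H3K27ac summit lay in 65.0% and 64.7% of convergent and in 52.3% and 52.9% of divergent stretches of any length. The stretch with most H3K27ac held 95 summits in replicate 1 and 89 in replicate 2.

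**Figure D3:**
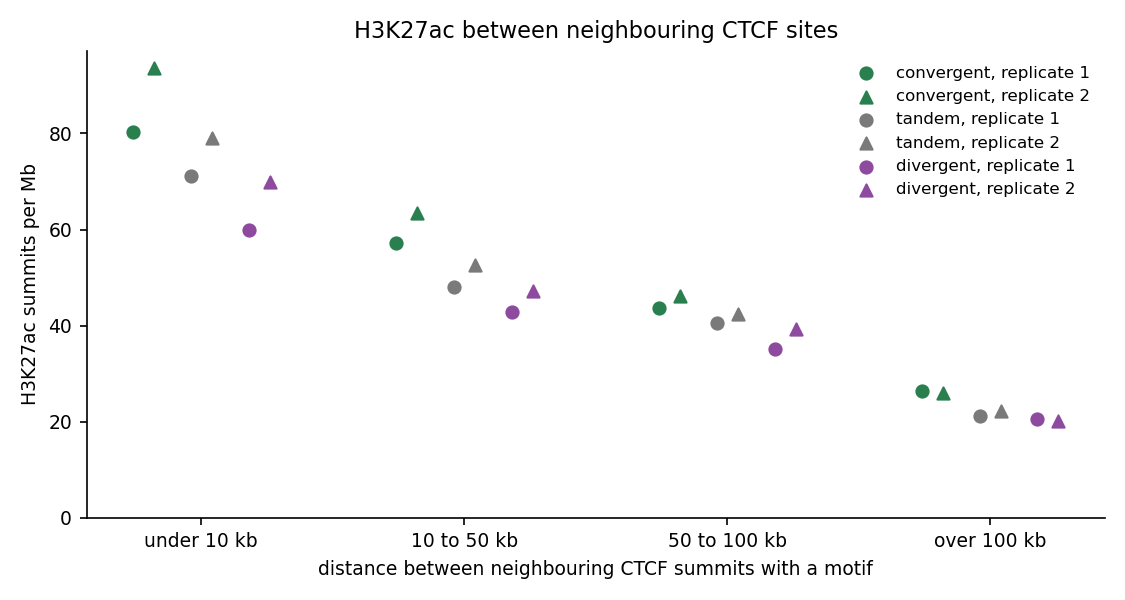
H3K27ac summits per Mb in the stretches between neighbouring CTCF summits with a motif, by the length of the stretch and the directions of the 2 motifs, with circles for replicate 1 and triangles for replicate 2. In stretches under 10 kb the values were 80.3 and 93.5 for convergent, 71.1 and 79.0 for tandem and 59.8 and 69.9 for divergent pairs.

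CTCF summits were then placed relative to the borders of H3K27ac peaks. Of all CTCF summits, 8499 (21.3%) lay inside an H3K27ac peak in replicate 1, as did 10437 (23.6%) in replicate 2 (mean 22.47% ± 1.61 SD, n = 2). H3K27ac peaks covered 5.91% and 5.96% of the chromosomes, so that CTCF summits were 3.61 and 3.96 times as frequent inside as the covered length. Points at 100 kb on both sides of the same CTCF summits lay inside H3K27ac in 8.33% and 8.73% of cases, and points at 250 bp in 21.96% and 24.1%. A further 9.11% and 9.19% of CTCF summits were outside but had an H3K27ac peak within 1 kb on one side, and 0.836% and 0.977% had one on both sides. No H3K27ac peak lay within 10 kb of 44.2% and 42.1% of CTCF summits.

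Edges of H3K27ac peaks were not richer in CTCF than the rest of the peaks. Within 100 bp of an edge, inside the peak, there were 51.8 and 59.9 CTCF summits per Mb. The rest of the same peaks held 61.1 and 74.9 per Mb. The ratio of edge to interior was 0.848 and 0.800, or 0.8239 ± 0.0343 (SD, n = 2). This direction depended on the peak list, as the ratio was 1.200 with the 30000 peaks of lowest p-value in each library, and 0.9383 with peaks of a −log10 q-value of at least 5. Along the distance from the edge, CTCF density had a minimum of 38.9 and 43.3 per Mb at 100 to 200 bp inside the edge. Further in, it rose to 78.1 and 96.7 per Mb at 500 to 1000 bp. Just outside, at 0 to 100 bp from the edge, it was 68.9 and 73.6 per Mb, and it fell to 21.9 and 23.9 per Mb at 300 to 500 bp. From 500 bp to 10 kb outside, the density was level, between 16.6 and 18.1 per Mb, near the 16.7 and 18.5 per Mb of the whole chromosomes. Beyond 50 kb, it was 8.05 and 8.74 per Mb. The H3K27ac peaks' own summits had another course inside the edge. Their density was 292 and 373 per Mb within 100 bp, 1010 and 1059 per Mb at 200 to 300 bp, and 532 and 537 per Mb at 500 to 1000 bp. Inside the peaks, CTCF was thus sparsest next to the distance at which H3K27ac summits were densest. This uses the same summits as the distances given above and is no separate measurement.

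**Figure D4:**
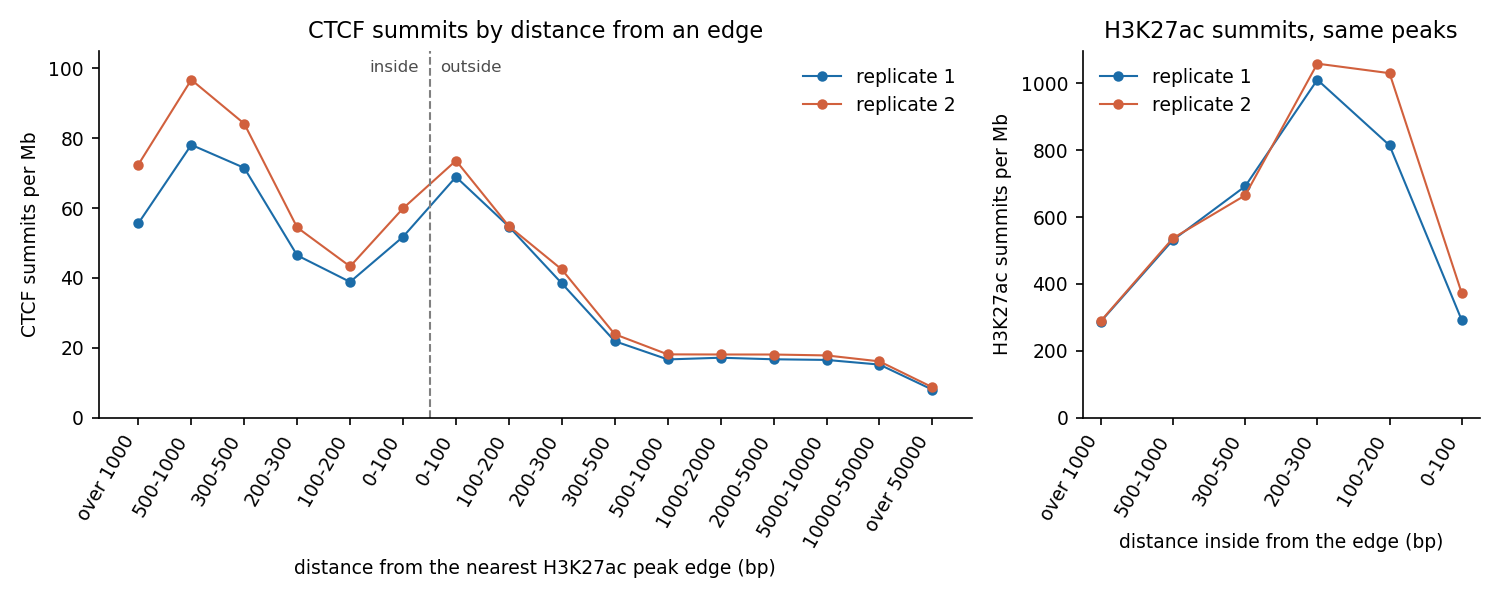
Left, CTCF summits per Mb by distance in bp from the nearest edge of an H3K27ac peak, inside (left of the dashed line) and outside, with 1 line per replicate. Right, the density of the H3K27ac summits of the same peaks by distance inside the edge, which was highest at 200 to 300 bp, where CTCF had 46.5 and 54.4 summits per Mb.

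The place of CTCF inside a peak differed with the width of the peak. In H3K27ac peaks under 1 kb wide, 24.2% and 22.5% of the CTCF summits inside lay in the outer 20% of the peak, counted as 10% at each end. This share was 12.8% and 12.9% in peaks of 1 to 2 kb, 11.9% and 10.7% in peaks of 2 to 5 kb, and 19.8% and 18.4% in peaks of 5 kb or more. Summits spread evenly along a peak would put 20% there. H3K27ac summits themselves were in these outer parts in 5.98% and 5.91% of peaks under 1 kb, and in between 1.12% and 3.47% of wider peaks. CTCF density per covered length varied less, between 52.4 and 68.2 per Mb in replicate 1 and between 65.8 and 82.4 per Mb in replicate 2, and was highest in peaks of 1 to 2 kb in both.

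H3K27ac peaks that held a CTCF summit were wide and strong. They numbered 7880 (10.6%) in replicate 1 and 9626 (11.95%) in replicate 2. Their median width was 2326 bp and 2279.5 bp, against 1184 bp and 1042 bp for H3K27ac peaks without CTCF. Their median H3K27ac fold enrichment was 10.8 and 11.4, against 4.55 and 4.39. Wider peaks have more room for a CTCF summit, and the part of width in the difference of enrichment was not tested. Of those with CTCF, 31.4% and 32.3% had their summit in a promoter, against 11.5% and 10.5% of those without, and 70.2% and 72.3% overlapped an H3K4me3 peak, against 32.0% and 35.1%. There were 535 and 674 H3K27ac peaks with 2 or more CTCF summits, and up to 5 in 1 peak. These had a median width of 6802 bp and 6794 bp.

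CTCF sites inside and outside H3K27ac differed in enrichment and motif. CTCF summits inside H3K27ac had a median fold enrichment of 17.3 and 16.1, and those outside but within 1 kb of 22.8 and 25.3. Those more than 10 kb away had 20.2 and 18.997. A motif was found at 83.3% and 80.1% of summits inside H3K27ac, at 88.8% and 88.5% within 1 kb and at 90.4% and 89.8% more than 10 kb away. Windows 1 kb from these summits held a motif in 12.7% and 12.7%, 12.4% and 12.9%, and 8.88% and 8.28% of cases, respectively. H3K4me3 peaks held 57.6% and 61.0% of the CTCF summits inside H3K27ac and 6.28% and 6.22% of those more than 10 kb away. In replicate 2, 78.4% of the summits inside had a replicate 1 summit within 100 bp, against 84.9% of those more than 10 kb away. In replicate 1 the share was 93.0% in both places.

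Of 37128 CTCF sites with summits of both replicates within 100 bp, 31410 fell in the same place relative to H3K27ac in both replicates. These were 6382 sites inside a peak and over 100 bp from its edges, 213 within 100 bp of an edge, 119 flanked within 1 kb on both sides, 2070 with a peak within 1 kb on one side, 7657 at 1 to 10 kb and 14969 more than 10 kb away. At an edge there were 738 shared sites in replicate 1 and 828 in replicate 2, of which 213 were at an edge in both.

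The strongest site inside a peak was at −242 bp from the TSS (negative meaning upstream) of DHX8, an RNA helicase of the spliceosome, with CTCF fold enrichment of 74.5 and 131. It was 685 bp and 823 bp from the edge of H3K27ac peaks of 3973 bp and 3518 bp, and the H3K27ac summit was at −587 bp and −455 bp, where negative distances are to the left on the plus strand. The next inside were at 10763 bp from the TSS of LOC110259770 and at −115 bp from that of FMO4, a flavin-containing monooxygenase. At the edge, the strongest was at −77 bp from the TSS of IFN-DELTA-7, an interferon gene, where CTCF fold enrichment was 74.3 and 79.9. It lay 15 bp and 55 bp from the edge of H3K27ac peaks of 778 bp and 765 bp, with their summits 308 bp and 288 bp to the right. An intronic site of CAMK1D, a calmodulin-dependent kinase, was 12 bp and 4 bp from an edge, with H3K27ac summits 382 bp and 389 bp to the right. A site at −109 bp from the TSS of FBXO34, an F-box protein gene, was 52 bp and 62 bp from an edge, with summits 387 bp and 484 bp to the right. All 3 of these edge sites had a motif on the plus strand, with the H3K27ac summit downstream of it. At other strong sites the nearest summit was upstream of the motif in both replicates, namely FMO4, MYSM1, XKR5, GBX1, LOC100518052 and FAM198B. The sites near LOC100518052 and FAM198B lay more than 10 kb from H3K27ac.

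Between H3K27ac peaks on both sides were sites at −3119 bp from the TSS of LOC110259247, in an intron of RYK, a receptor of WNT ligands, and at −25402 bp from the TSS of MYSM1, a histone H2A deubiquitinase. At the first, an H3K27ac summit lay at −426 bp and −317 bp. With a peak on one side, the strongest site was at −4712 bp from the TSS of GBX1, a homeobox gene, with CTCF fold enrichment of 86.0 and 99.7. The H3K27ac summits were at −911 bp and −892 bp from it. The next was at −49292 bp from the TSS of RAB2A, a GTPase of transport between endoplasmic reticulum and Golgi, with H3K27ac summits at −644 bp and −732 bp. Far from H3K27ac, the strongest sites had CTCF fold enrichment of 128 and 120 near LOC100518052, 110 and 113 near FAM198B, and 123 and 95.3 near PPP1R3A, a glycogen-targeting subunit of protein phosphatase. Their nearest H3K27ac summits were at 27541 bp and 27664 bp, at −73065 bp and −73125 bp, and at −43420 bp and 61747 bp. All these sites were chosen by their enrichment from groups of unequal size, so that their heights are a description and were not compared between places.

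H3K27ac was next counted on both sides of each CTCF summit, since CTCF sites can lie between active and inactive chromatin. Within 50 kb on each side, there were 2.27 H3K27ac summits on the left and 2.28 on the right in replicate 1, and 2.53 and 2.54 in replicate 2. Both sides had at least 1 at 54.4% and 56.3% of CTCF summits, 1 side only at 29.2% and 27.7%, and neither side at 16.4% and 16.0%. The share with 1 side only was 28.43% ± 1.08 (SD, n = 2). The share was also taken at other points. It was 27.6% and 26.1% at midpoints between neighbouring CTCF summits, between 26.6% and 27.7% at points 100 kb to the left or right of a CTCF summit, and 17.5% and 16.2% at H3K27ac summits. In both replicates the share at CTCF summits was above that at the midpoints of the same replicate, but the share at CTCF summits of replicate 2 hardly exceeded that at the midpoints of replicate 1. Neither side had H3K27ac at between 19.8% and 21.2% of the points 100 kb away. Of points with any H3K27ac, the share with 1 side only was 34.9% and 32.9% at CTCF summits, and 33.4% and 31.4% at midpoints. At points 100 kb to the left and right it was 34.6% and 34.8% in replicate 1, and 33.5% and 33.2% in replicate 2. By this share, CTCF summits were hardly above points 100 kb away in replicate 1 and below them in replicate 2.

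Left and right counts of H3K27ac summits were also set against each other. The Pearson correlation of left and right counts across sites was 0.396 and 0.431 at CTCF summits, 0.452 and 0.477 at midpoints and between 0.499 and 0.524 at points 100 kb away. It fell from 0.474 and 0.498 in the lowest group of CTCF peaks by fold enrichment to 0.332 and 0.347 in the highest. Neighbouring sites share H3K27ac peaks and chromosomes, so these are descriptions with no p-value. One side only was the case at 26.6% and 25.2% of CTCF summits in the lowest group and at 32.7% and 30.9% in the highest. CTCF summits outside H3K27ac had 1 side only in 33.4% and 32.3% of cases, and those inside in 13.6% and 12.8%. Neither side had H3K27ac at 20.9% of those outside in both replicates, and at 0.0118% and 0.0% of those inside. A CTCF summit inside a peak mostly counts that peak's own summit, so that this contrast follows in part from the grouping. The side was mostly the same in both replicates. Of the 37128 shared sites, 8786 (23.7%) had H3K27ac on 1 side only in both replicates and on the same side, and 83 (0.224%) had opposite sides. This was not counted at points away from CTCF, so that it describes the agreement of the H3K27ac lists and no trait of CTCF sites.

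The 3 shared sites with the largest difference between the sides were on chromosomes 5, 7 and 17. At a site 53441 bp downstream of the TSS of TXNRD1, thioredoxin reductase, there were 2 H3K27ac summits on the left and 14 on the right in replicate 1, and 2 and 20 in replicate 2. The motif was on the plus strand and pointed to the right. A site at −486 bp from the TSS of RRBP1, a ribosome-binding protein of the endoplasmic reticulum, had 14 summits on the left and none on the right in replicate 1, and 16 and 1 in replicate 2. Its motif was on the minus strand and pointed to the left. A site in LTBP2, which encodes a latent TGF-beta binding protein of the extracellular matrix, had 15 and 1 in replicate 1, and 16 and 1 in replicate 2. It was inside H3K27ac peaks of 49355 bp and 49523 bp, 1987 bp and 1956 bp from their edge. Its motif was on the plus strand and pointed away from the side with more summits. A peak counts as 1 summit whatever its width, so that the side with fewer summits need not hold less H3K27ac. The motif pointed to the side with more summits at 2 of these 3 sites. Over all CTCF summits with a motif, the downstream side within 50 kb had more summits at 38.0% and 38.4%. The upstream side had more at 35.3% in both replicates. The 3 sites therefore say nothing on direction.

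Chromosomes differed in both marks. CTCF density ranged from 9.59 per Mb on chromosome X to 26.9 per Mb on chromosome 12 in replicate 1, and H3K27ac density from 12.2 to 48.6 per Mb on the same chromosomes. Across the 19 chromosomes, the densities of the marks had a Pearson correlation of 0.888 in replicate 1 and 0.913 in replicate 2, and of 0.873 and 0.903 without X, as a description of chromosomes that share libraries. The share of CTCF summits inside H3K27ac was lowest on X, at 12.4% and 14.1%, and highest on chromosome 12, at 29.5% and 32.3%. The median distance to the nearest H3K27ac summit was 19801 bp and 18656 bp on X and 3969 bp and 3279.5 bp on chromosome 12.

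The genomic class of each summit was taken from the 28077 RefSeq genes of Sscrofa11.1. A summit within 1 kb of a TSS was a promoter summit, and the others were exonic, intronic or intergenic in this order. CTCF was more intergenic than H3K27ac and less often in promoters and introns. CTCF summits were intergenic in 38.5% and 38.0% of cases (38.2% ± 0.338, SD, n = 2), and H3K27ac summits in 27.3% and 26.8% (27.05% ± 0.407, SD, n = 2). Introns held 46.9% and 46.5% of CTCF (46.7% ± 0.251) and 53.5% and 54.1% of H3K27ac summits (53.8% ± 0.428). Promoters held 8.36% and 8.98% of CTCF (8.67% ± 0.435) and 13.6% and 13.1% of H3K27ac summits (13.4% ± 0.380). Exons held 6.28% and 6.50% of CTCF and 5.55% and 6.06% of H3K27ac summits, which differed by 0.581 percentage points. By length, 43.2% of the chromosomes was intergenic, 51.1% intronic, 3.59% exonic and 2.16% promoter. CTCF was therefore 4.02 times and H3K27ac 6.19 times as frequent in promoters as their length, and 0.886 and 0.627 times as frequent between genes.

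**Figure D5:**
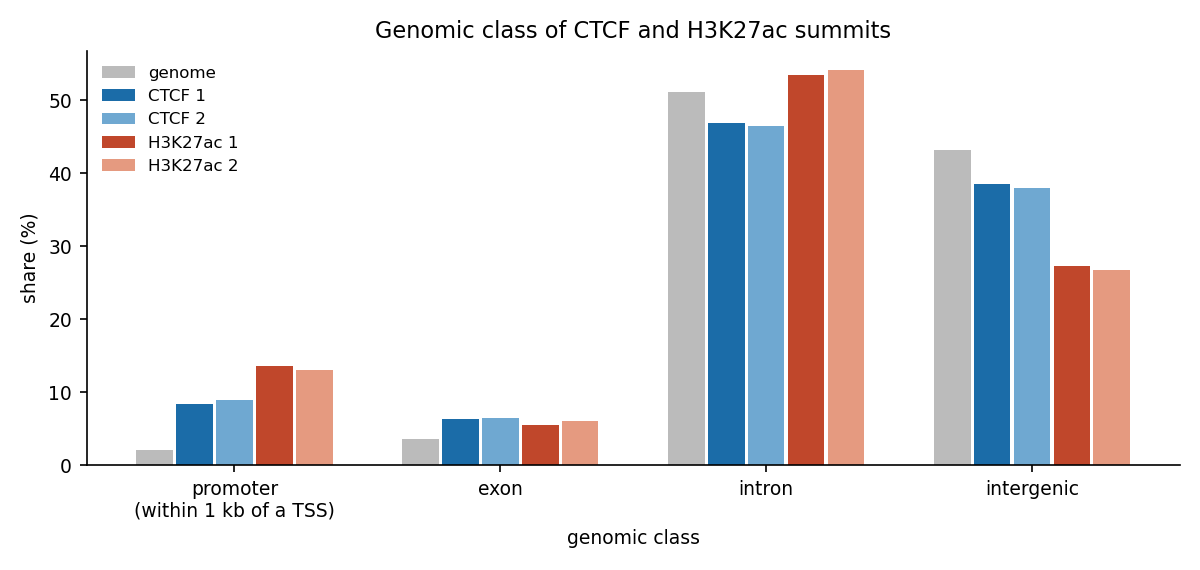
Share in percent of CTCF and H3K27ac summits of each replicate in promoters, exons, introns and intergenic sequence, beside the share of base pairs of the chromosomes in each class (grey). Promoters held 8.36% and 8.98% of CTCF summits and 13.6% and 13.1% of H3K27ac summits, against 2.16% of the base pairs.

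The difference of CTCF minus H3K27ac was −4.69 percentage points for promoters, −7.08 for introns and 11.2 for intergenic sequence. Each of these was larger than the spread between replicates, and no library of CTCF overlapped one of H3K27ac. The two-sided exact permutation test over libraries gave p = 0.3333 for each, the smallest p that 2 against 2 libraries can give, so that p under 0.05 was out of reach. With the replicate block, which takes differences within replicate numbers, the differences were the same and the exact p was 0.5, again the smallest possible. With 30000 peaks per library, the promoter difference was −20.85 points and the intron difference turned to 6.408 points. With promoters taken as 5 kb around a TSS, the promoter difference was −0.5191 points, and it was −8.994 points and the intron difference −2.418 points with a −log10 q-value of at least 5.

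CTCF places differed in class. Of CTCF summits inside H3K27ac, 26.6% and 27.1% were in promoters and 25.8% and 24.8% were intergenic. Of those more than 10 kb from H3K27ac, 2.55% and 2.67% were in promoters and 45.3% in both replicates were intergenic. Those outside but within 1 kb of H3K27ac were intronic in 50.9% and 50.1% of cases.

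Gene starts were then asked for both marks. Of the 28077 genes, 14064 (50.1%) had an H3K27ac peak within 1 kb of the TSS in both replicates, and 4261 (15.2%) had a CTCF peak there in both. Of the genes with H3K27ac, 3329 (23.7%) also had CTCF. Of the 13240 genes without H3K27ac in either replicate, 799 (6.03%) had CTCF. For protein-coding genes alone the shares were 24.2% and 7.35%. The nearest CTCF summit was at a median of 8011 bp and 6093 bp from the TSS of genes with H3K27ac and 19085.5 bp and 17095 bp from those without. At genes with both marks, CTCF summits within 1 kb lay at a median of −42.0 bp and −48.0 bp from the TSS, whereas H3K27ac summits lay at a median of 258 bp and 248 bp downstream. The H3K27ac summit was downstream at 69.7% and 70.5% of those of these genes that had one within 1 kb, and at 67.8% and 69.8% of those with H3K27ac and no CTCF, where the median was 243 bp and 235 bp.

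The cells' label was checked on gene starts. Of 24 fibroblast genes, 22 were found in the annotation, and all 22 had H3K27ac within 1 kb of the TSS in both replicates, against 50.1% of all genes. COL6A1 and COL6A2 were not matched by symbol. CTCF was present at 5 of the 22 (22.7%), against 15.2% of all genes. Since all 22 had H3K27ac, the nearer reference is all genes with H3K27ac, of which 23.7% had CTCF. The 5 were the collagen genes COL1A1, COL1A2 and COL5A1, the growth factor receptor gene PDGFRA and TAGLN, which encodes the actin-binding protein transgelin. At COL1A2, CTCF summits were 710 bp and 677 bp downstream of the TSS with fold enrichment of 28.8 and 40.4, and H3K27ac summits were 401 bp and 300 bp downstream with 32.0 and 29.2. At COL1A1, the CTCF summits were 1120 bp and 1099 bp and the H3K27ac summits 592 bp and 533 bp downstream. At PDGFRA, CTCF was at −1105 bp and −1096 bp and H3K27ac at 289 bp and 553 bp. In TAGLN both were upstream, CTCF at −1097 bp and −1101 bp and H3K27ac at −586 bp and −444 bp. VIM, which encodes the intermediate filament vimentin, had its nearest CTCF summits 2586 bp and 2585 bp downstream, and TWIST2, a mesenchymal transcription factor gene, 37262 bp and 37252 bp downstream.

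Of 20 genes of other cell types, 3 (15.0%) had H3K27ac at the TSS in both replicates, against 50.1% of all genes, and 17 had none in either. The 3 were SPI1, a transcription factor gene of blood cells, APOA1, an apolipoprotein gene of liver, and MYOG, a muscle transcription factor gene, with H3K27ac fold enrichment at the nearest summit of 12.4 and 17.0, 8.07 and 10.4, and 7.06 and 5.26. The defining genes CDH1 and EPCAM of epithelium, PECAM1 and CDH5 of endothelium, PTPRC and CD3E of blood and ALB of liver had no H3K27ac peak within 1 kb. CTCF was present in both replicates at 1 of the 20 (5.0%), against 15.2% of all genes and 6.03% of genes without H3K27ac in either replicate. This was MYOD1, the myogenic factor gene. Its nearest H3K27ac summits were at 90876 bp and −39768 bp, and its CTCF summits were 514 bp and 515 bp downstream of the TSS.

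Of 14 genes of CTCF and cohesin, 13 (92.9%) had H3K27ac at the TSS, against 50.1% of all genes, and 4 (28.6%) had CTCF, against 15.2%. All 4 had H3K27ac, and among all genes with H3K27ac the share with CTCF was 23.7%. They were PDS5A and PDS5B, named for regulators that bind the cohesin ring, NIPBL, the loader of cohesin, and ESCO2, a cohesin acetyltransferase. At PDS5B, CTCF summits were at −10 bp and −12 bp from the TSS with fold enrichment of 41.5 and 77.5, and the H3K27ac summits were 1020 bp and 1429 bp downstream. At ESCO2, CTCF was 206 bp and 216 bp downstream and H3K27ac at −391 bp and −436 bp. At NIPBL, CTCF was at −765 bp and −754 bp and H3K27ac at 577 bp and 524 bp. At PDS5A, whose only entry matched here is annotated as a long non-coding RNA, so that its start may not be that of the coding gene, CTCF was at −114 bp and −133 bp and H3K27ac at 935 bp and 887 bp. In these 4 genes the summits of the marks were on opposite sides of the TSS in both replicates, with CTCF downstream at ESCO2 and upstream at the others. How often this holds among all genes with both marks was not computed. Where those genes had a summit within 1 kb, CTCF was upstream at 57.2% and 57.5% and H3K27ac downstream at 69.7% and 70.5%. RAD21 and SMC3, ring subunits, had H3K27ac summits within 1 kb of the TSS and their nearest CTCF summits more than 10 kb away. The annotated TSS of CTCF itself had no H3K27ac peak within 1 kb, and the nearest summits were at −5495 bp and −6236 bp.

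Among 36 HOX genes, which pattern the body axis, 28 (77.8%) had H3K27ac at the TSS in both replicates, against 50.1% of all genes. CTCF was at 6 (16.7%), close to the 15.2% of all genes. Of the 28 with H3K27ac, 5 had CTCF, against 23.7% of all genes with H3K27ac. The 6 were HOXA5, HOXA6, HOXA10, HOXC5, HOXC10 and HOXD10, and 5 of them had H3K27ac in both replicates. At HOXA10, CTCF summits were 310 bp and 307 bp and H3K27ac summits 646 bp and 599 bp downstream of the TSS. At HOXC10, CTCF was at −133 bp and −134 bp, with fold enrichment of 21.5 and 29.3, and H3K27ac was 969 bp and 429 bp downstream, with 6.57 and 4.47. At HOXC5, CTCF was at −366 bp and −359 bp, and the nearest H3K27ac summits were more than 10 kb away although a peak came within 1 kb of the TSS. The median distance of the nearest CTCF summit from a HOX TSS was 4452.5 bp and 4413.5 bp, against 12276 bp and 10493 bp for all genes. For all genes with H3K27ac it was 8011 bp and 6093 bp. HOX genes lie side by side in clusters and share sites, so that they are not independent of each other.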

How the data were processed

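The authors aligned the ChIP-seq reads to Sscrofa11.1, per the labels, using Bowtie2. They discarded multiply mapped fragments and, with Picard, duplicates, and ran MACS2 on every library for narrow peaks. The deposited lists give, for each peak, a fold enrichment (a ratio over control), p- and q-values as −log10 and an integer score, which was not used. The methods name a q-value of 0.01, but 3.06% of H3K27ac peaks of both replicates had a higher one, as did 0.115% and 0.0565% of CTCF peaks, and the lists were used as deposited.

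Summits, overlaps of at least 1 bp and genomic classes were computed in Python 3.11.15 with numpy 2.4.6, pandas 2.3.3 and scipy 1.17.1 on chromosomes 1 to 18 and X. CTCF replicate n was set against H3K27ac replicate n, and also crossed. The motif was learned by expectation maximisation on the strongest peaks of odd-numbered autosomes. Peaks of 1 library are not replicates, so values are given per replicate and tests are exact permutation tests over libraries. Measures were tested on simulated data. Sites and genes were named by lists and by rank of fold enrichment within each place. Members, lists and tests were chosen with earlier results of these data known, and the density ratio around CTCF summits, the motif-direction ratio and the stretches between motifs were added after values had been seen.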

Additional observations from a re-analysis of the deposited data

Results flagged for a closer look

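Some CTCF and H3K27ac peaks lay outside chromosomes 1 to 18 and X, on chromosome Y or unplaced scaffolds, and entered no comparison. Of 435 CTCF summits there in replicate 1, 84 (19.3%) lay in an H3K27ac peak, and of 473 in replicate 2, 99 (20.9%) did. They are listed because they are a signal in peaks that no comparison used, and no control sample has a peak list here.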

How the results depend on the processing

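Of 56 recomputed values of the 6 results without a test, 37 moved by less than the replicate spread, 18 by more and 1 reversed. Values with 1 replicate number left out are among the 37 by arithmetic. With 2 replicates, leaving out 1 always moves the mean by less than the SD. Of 36 values of the 3 class differences, 35 kept their sign and 1 reversed. Their exact test could not reach 0.05 under any setting and says nothing on stability. The promoter difference ranged from −20.85 to −0.5191 points, with −3.115 at the middle of the peak. With 30000 peaks per library, the ratio of edge to interior reversed to 1.200 and the intron difference to 6.408 points, the share within 1 kb was 12.4%, the share inside 16.32%, the share with 1 side 36.36%, the density ratio around CTCF summits 5.986 and the motif ratio 1.632. With −log10 q of at least 5, the share within 1 kb was 19.28%, the edge ratio 0.9383 and the share with 1 side 31.49%. With peaks of both replicates, these were 20.43%, 0.8921 and 30.46%, and the density ratio was 4.044. With windows of 500 bp and 5 kb, the share within 1 kb became 16.05% and 43.79%. With edges of 50 bp and 200 bp, the ratio was 0.9369 and 0.6791, and with 20 kb and 100 kb, the share with 1 side was 34.61% and 21.03%. The cause was not tested, beyond windows and list sizes that differ by construction. Without 1 library or replicate number no result changed direction.

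Same-numbered CTCF and H3K27ac libraries share only a number. Their deviations over 2398 bins of 1 Mb had a Pearson correlation of −0.0994, and with the replicate block the differences were −4.686, −7.080 and 11.18 points with an exact p of 0.5. The variants of the density ratio and the motif ratio were chosen after seeing the data. The lists give no depth, which limits statements on absent peaks.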
